A study of Mus musculus with 6 samples.

Results

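The epidermal growth factor (EGF) family of ligands and the ERBB receptors that they activate were examined in the uterus of mice with a conditional deletion of *Foxo1*. The members were 10 genes chosen by name, of 23420 genes in the deposited table. They were the ligand genes *Hbegf*, *Areg*, *Ereg*, *Btc*, *Tgfa* and *Nrg1*, known from work on implantation, and the 4 receptor genes *Egfr*, *Erbb2*, *Erbb3* and *Erbb4*. All 10 genes were found in the table.

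RNA-seq had been performed on uteri of C57BL/6J females at 8 weeks of age, 4.5 days into a pseudopregnancy (PPD 4.5) brought about by vasectomized males, so that no embryo was present. The control females were *Foxo1f/f*, which carry *Foxo1* alleles flanked by loxP sites and no Cre, and the knockout females were PgrCre/+ *Foxo1f/f* (*Foxo1d/d*), in which Cre is expressed from the *Pgr* locus and removes *Foxo1* in cells that express PGR. Cells without PGR, such as those of blood vessels, keep *Foxo1*, and the knockout females also carry Cre at an allele of *Pgr*, which the controls do not. Each genotype was represented by 3 libraries, each made from a pool of 2 mice. The values used here were the authors' mean raw counts per genotype, and the average library held 26125014 counts for control and 27257963 for knockout uteri. Because counts of single libraries were not used, the spread between pools could not be measured, and the differences given here have no replicate check and no test between genotypes.

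EGF-like ligands are made as membrane-anchored precursors and are cut from the cell surface by ADAM proteases, after which they bring ERBB receptors together in pairs and activate the RAS-ERK and PI3K pathways. TGFA and AREG bind EGFR, HBEGF, BTC and EREG bind EGFR and ERBB4, and neuregulins bind ERBB3 and ERBB4, while ERBB2 has no known ligand of its own and ERBB3 has little kinase activity and signals through its partners. In the mouse uterus, *Hbegf* is known for its induction in the luminal epithelium next to the blastocyst, and *Areg* for its control by progesterone in the luminal epithelium around the time of implantation.

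*Foxo1* was examined before the members, as a check of the genotypes. It averaged 3941 counts in control and 1456 in knockout uteri. The log2 ratio of knockout over control was -1.498, which was 2.82-fold lower and matched the labels. For every gene this ratio was taken from mean counts with 1 added, scaled to the total of the genotype, and is given with a 95% Wilson interval from the summed counts of the 3 libraries (for *Foxo1*, -1.55 to -1.45). This counting interval reflects the number of reads and leaves out all differences between pools of mice. The tissue label was also checked. Stromal *Hoxa10* averaged 14268 counts in control and 13780 in knockout uteri, smooth muscle *Myh11* 60677 and 46984, and epithelial *Cdh1* 4438 and 4981, so that markers of each main layer of the uterus were present in both genotypes.

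Genes averaging 10 or more counts across the genotypes were retained, which left 8 of the 10 members and 15696 genes in all. Of those 8 members, 1 was over 1.5-fold higher in *Foxo1d/d* (*Areg*), where 5.43% of the 15696 genes were, and 2 were over 1.5-fold lower (*Erbb3* and *Btc*), where 3.51% were. With a threshold of 2-fold, 0 members were past it in either direction, while 1.99% of the retained genes were higher and 1.4% lower by more than that. The counting interval lay above 0 for 1 member, against 36.7% of all retained genes, and below 0 for 5 members, against 27.3%. These 5 were *Btc*, *Tgfa*, *Egfr*, *Erbb2* and *Erbb3*. The median log2 ratio of the 8 members was -0.20, and that of the 15696 genes was 0.02. The largest differences among the members were thus a lower level of a receptor transcript, *Erbb3*, and ligand transcripts that differed in opposite directions.

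**Figure D1:**
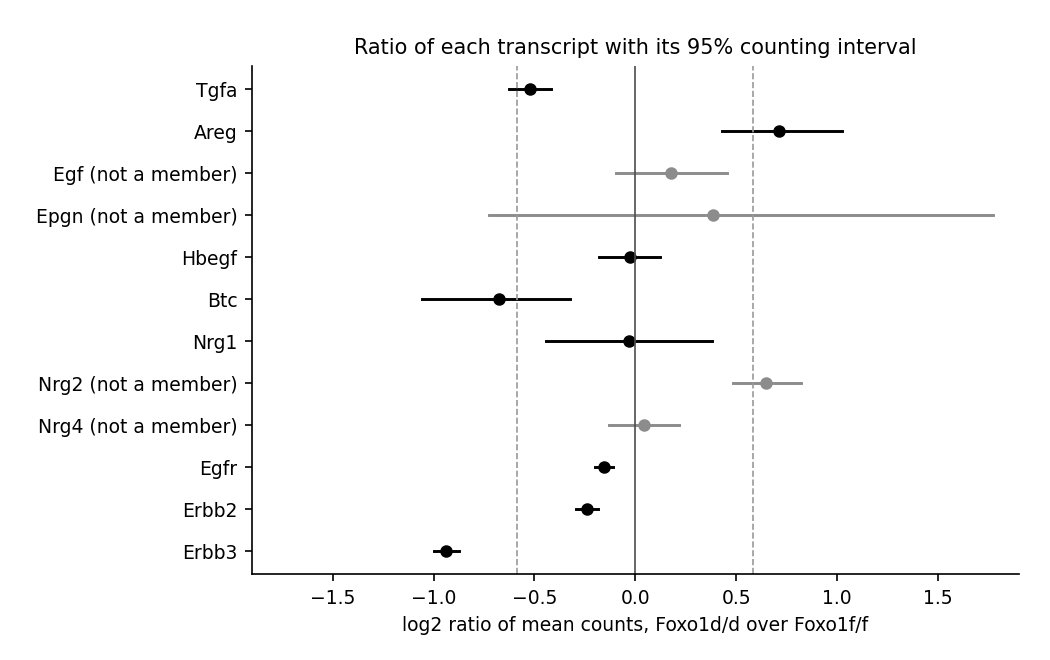
The log2 ratio of mean counts in *Foxo1d/d* over *Foxo1f/f* (horizontal axis) is shown for each ligand and receptor transcript, with its 95% counting interval as a bar. Dashed lines mark 1.5-fold, members are black and other family members grey, and *Areg* lies to the right of the dashed lines while *Erbb3* and *Btc* lie to the left.

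Among ligands of EGFR, the transcripts of amphiregulin and of transforming growth factor alpha differed in opposite directions. *Areg* averaged 47.3 counts in control and 81.7 in knockout uteri. The log2 ratio was 0.71 (interval 0.43 to 1.02), or 1.64-fold higher, and 6.44% of the retained genes had a larger absolute ratio. Differences of this size are more frequent among genes with low counts, and of the 2746 genes averaging from 10 to below 100 counts, 16.1% were over 1.5-fold higher. *Tgfa*, the ligand transcript with the most counts, averaged 575 counts in control and 418 in knockout uteri. This was a log2 ratio of -0.52 (interval -0.63 to -0.42), a 1.44-fold lower level. The exons of *Tgfa* share 118 bases with the antisense gene *Gm43917*, and since it is not stated whether strand was used in counting, reads there cannot be assigned to either gene.

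Ligands that bind both EGFR and ERBB4 ranged from no detectable difference to a lower level. *Hbegf*, which encodes heparin-binding EGF-like growth factor, averaged 227 counts in control and 233 in knockout uteri. The log2 ratio of -0.03 had an interval from -0.18 to 0.12, so that no difference was detectable at this depth. The betacellulin transcript *Btc* was at 1.91 counts in a total of 1000000 (CPM) in control and 1.19 in knockout uteri, from 150 and 97 summed counts. The log2 ratio of -0.68 (interval -1.06 to -0.32) was a 1.60-fold lower level, and among genes averaging from 10 to below 100 counts, 9.98% were over 1.5-fold lower. Epiregulin, encoded by *Ereg*, was close to absent. Its summed counts were 2 and 3 over the control and the knockout libraries, and no ratio is given.

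*Nrg1* encodes neuregulin 1, a ligand of ERBB3 and ERBB4. It averaged 31.0 counts in control and 31.7 in knockout uteri, and its log2 ratio of -0.03 had the widest interval of the retained members, -0.44 to 0.38. A difference of up to these bounds could not have been detected by counting at this depth. *Nrg1* shares 482 exonic bases with the antisense gene *Gm26578*, and *Ereg* shares 141 with *Gm19610*.

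*Areg*, *Ereg* and *Btc* lie in a cluster of ligand genes on chromosome 5. In the RefSeq annotation of GRCm38.p6 the cluster runs over 375.5 kb from *Epgn* to *Btc* and holds 7 genes, of which 5 were in the table. *Areg* (chr5:91139599-91148432, forward strand) and *Btc* (chr5:91357261-91402994, reverse strand) are 208.8 kb apart. They were the members of the cluster with more than a few counts, and their transcripts differed in opposite directions. *Ereg*, which ends 46.0 kb before *Areg*, and *Epgn* were near 0, and the non-coding *Gm19619* between *Areg* and *Btc* had no count in either genotype.

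The promoters of *Areg* and *Btc* are printed because these neighbouring genes differed in opposite directions. RefSeq (GRCm38.p6) gave promoter windows, from 250 bases before to 50 after the start site, for 6 members, namely *Areg*, *Btc*, *Tgfa*, *Egfr*, *Erbb2* and *Erbb4*. Entries for *Hbegf*, *Ereg*, *Nrg1* and *Erbb3* were not used here. The windows are chr5:91139349-91139648 on the forward strand for *Areg* and chr5:91402945-91403244 on the reverse strand for *Btc*, both written 5′ to 3′, with capitals for the motifs found.
Areg: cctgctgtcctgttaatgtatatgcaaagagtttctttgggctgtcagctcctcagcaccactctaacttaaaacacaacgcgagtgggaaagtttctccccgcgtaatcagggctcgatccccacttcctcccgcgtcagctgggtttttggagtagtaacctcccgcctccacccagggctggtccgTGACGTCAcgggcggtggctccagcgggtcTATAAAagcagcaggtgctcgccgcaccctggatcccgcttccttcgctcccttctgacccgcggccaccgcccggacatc
Btc: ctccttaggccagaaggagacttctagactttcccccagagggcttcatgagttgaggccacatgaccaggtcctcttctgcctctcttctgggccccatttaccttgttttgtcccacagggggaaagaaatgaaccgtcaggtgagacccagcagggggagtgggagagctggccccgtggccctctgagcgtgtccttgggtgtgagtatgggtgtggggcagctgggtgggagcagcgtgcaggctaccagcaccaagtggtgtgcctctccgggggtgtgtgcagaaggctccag
Both strands of the 6 windows were searched for the cAMP response element TGACGTCA, the TATA box TATAAA, the forkhead element GTAAACA and the palindrome ACANNNTGT of the progesterone and glucocorticoid receptors. The capitals in *Areg* are the cAMP response element, which begins at position -61 from the start site and is found in 1.79% of 32851 promoters, and the TATA box, which begins at position -31 and is found in 13.6%. No searched motif was found in the *Btc* window. The forkhead element, present in 3.65% of all promoters, and the palindrome ACANNNTGT, present in 6.85%, were found in 0 of the 6 windows. A match or its absence describes these letters in these windows and shows neither binding nor control.

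The receptor transcripts were all lower in *Foxo1d/d* where they were detected, by unequal amounts. *Erbb3* encodes the receptor that binds neuregulins and recruits PI3K. It averaged 2024 counts in control and 1103 in knockout uteri. The log2 ratio was -0.94 (interval -0.998 to -0.88), or 1.91-fold lower, and 3.92% of the retained genes had a larger absolute ratio. Among the 7103 genes averaging 1000 counts or more, which have the least counting error, 1.42% were over 1.5-fold lower. *Erbb3* was therefore the member with both the largest difference and a high count. In bulk tissue, fewer cells of a type and less RNA per cell cannot be told apart, for this and for every other transcript described here.

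*Erbb2* encodes the receptor without a ligand that serves as the preferred partner of the others. It averaged 1908 counts in control and 1684 in knockout uteri, and the log2 ratio was -0.24 (interval -0.30 to -0.19). *Egfr*, the receptor for all of the EGF-like ligands except the neuregulins, averaged 2821 counts in control and 2641 in knockout uteri. Here the log2 ratio was -0.16 (interval -0.20 to -0.11). Both differences were small next to that of *Erbb3*, and 30.1% and 45.9% of retained genes had a larger absolute ratio than *Erbb2* and *Egfr*. The exons of *Erbb2* overlap those of *Mien1* on the opposite strand by 9 bases. *Erbb4*, the other receptor for neuregulins and for HBEGF, had no count in either genotype. A count of 0, with 3 summed counts as its one-sided 95% upper limit, allows up to 0.0383 CPM in control and 0.0367 in knockout uteri, so that *Erbb4* was not detectable at this depth.

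**Figure D2:**
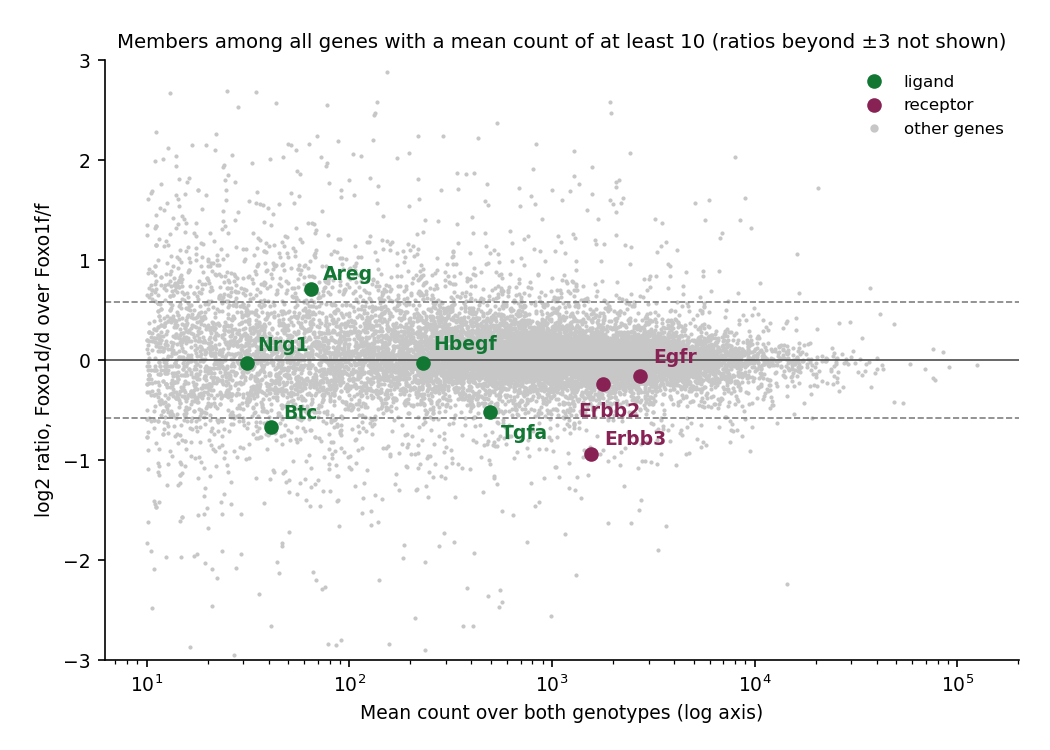
Each grey point is a gene averaging at least 10 counts, placed by its mean count over both genotypes (horizontal log axis) and its log2 ratio in *Foxo1d/d* over *Foxo1f/f* (vertical axis), and dashed lines mark 1.5-fold. *Areg* and *Btc* lie just past the dashed lines where counts are low and ratios spread widely, and *Erbb3*, at -0.94, lies past them among genes with high counts.

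Levels of different genes were compared as CPM per kilobase of merged exons. On this scale, the level of *Erbb2* was 14.015 in control and 11.9 in knockout uteri. The level of *Erbb3* was 12.9 and 6.73, and that of *Egfr* was 9.53 and 8.55, in the same order of genotypes. In *Foxo1f/f* the order of the receptors was therefore *Erbb2*, *Erbb3* and *Egfr*, and in *Foxo1d/d* it was *Erbb2*, *Egfr* and *Erbb3*. As a share of the summed level of the 4 receptors per kilobase, *Erbb3* made up 35.4% in *Foxo1f/f* and 24.8% in *Foxo1d/d*. The shares of *Erbb2* were 38.5% and 43.7%, and those of *Egfr* were 26.2% and 31.5%. With the shorter coding sequence as the length, *Egfr* was placed above *Erbb2* and *Erbb3* in both genotypes, so that the order among receptors depends on the length used.

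All ligand members had a lower level per kilobase of merged exons than *Egfr*, *Erbb2* and *Erbb3*. In *Foxo1f/f* the levels were 3.39 for *Tgfa*, 1.80 for *Hbegf*, 1.49 for *Areg*, 0.423 for *Btc*, 0.115 for *Nrg1* and 0.00618 for *Ereg*. Exact Poisson intervals of *Hbegf* (1.67 to 1.94) and *Areg* (1.26 to 1.76) overlapped. Overlap of separate intervals does not settle whether these neighbours in the order differ by counting, and their difference was not tested. In *Foxo1d/d* the level per kilobase of merged exons was 2.47 for *Areg* (Poisson interval 2.17 to 2.79), 2.36 for *Tgfa* (2.23 to 2.50) and 1.77 for *Hbegf* (1.64 to 1.902). *Areg* and *Tgfa* thus overlapped in the knockout, where they had been apart in the controls. With the length of the longest transcript in place of merged exons, *Tgfa* was instead above *Areg* in *Foxo1d/d*, at a level of 3.38 against 2.47. With the coding sequence as the length, *Tgfa* was placed above every other member in both genotypes, receptors included.

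**Figure D3:**
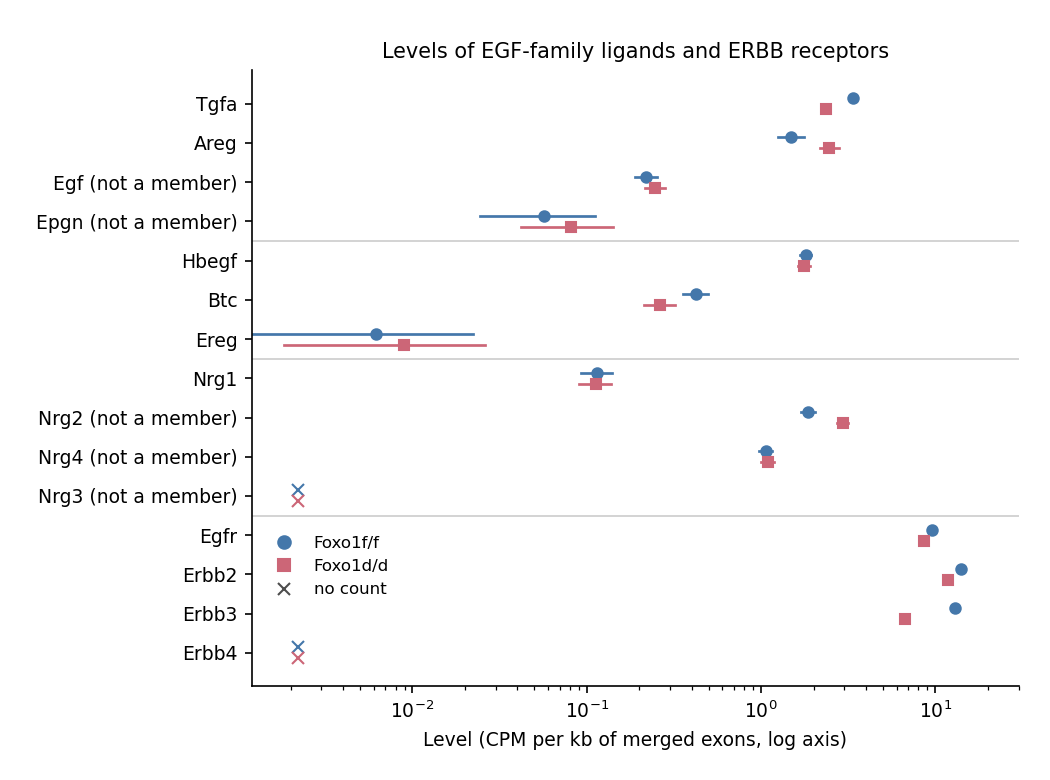
Levels in CPM per kilobase of merged exons (log axis) are shown for ligands grouped by the receptors they bind and for the receptors, with bars for exact 95% Poisson intervals and crosses for genes without a count. *Egfr*, *Erbb2* and *Erbb3* lie between 6.73 and 14.015, to the right of all ligands, and *Areg* and *Tgfa* come together in *Foxo1d/d*.

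The remaining EGF-family ligands, which are not members, were examined beside them. *Nrg2*, a neuregulin, averaged 153 counts in control and 251 in knockout uteri and was 1.57-fold higher, with a log2 ratio of 0.65 (interval 0.49 to 0.82). By contrast *Nrg4*, another neuregulin, averaging 169 and 181 counts, had a log2 ratio of 0.04 (interval -0.13 to 0.22). *Egf* averaged 64.3 and 76.0 counts, and its interval of -0.10 to 0.46 included 0. Epigen, encoded by *Epgn*, had summed counts of 8 and 12, and *Nrg3* had none. Of these 5 ligands, 3 were retained, and all 3 had a ratio above 0 (median 0.18, or 0.28 without the filter on low counts).

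Ligand release was represented by 11 genes for the proteases that cut EGF-like precursors and their partners, all of which were retained. In *Foxo1d/d*, 8 were higher and 3 lower by the sign of the ratio, as counted for every list whatever the interval, and the median log2 ratio was 0.06. By the same count 8649 of all 15696 retained genes were higher and 7047 lower. The 1.5-fold threshold was passed upward by 2 genes and downward by 0. *Adam12*, a protease that can cut the HBEGF precursor, averaged 2262 counts in control and 4232 in knockout uteri, 1.79-fold higher. *Rhbdl2*, a rhomboid protease with few counts (an average of 34.3 in the knockout), was 1.54-fold higher, and *Adam8* had a log2 ratio of 0.22. *Adam17*, the main protease for AREG and TGFA, and *Adam10*, which cuts BTC and EGF, had log2 ratios of 0.02 and 0.06. Both are named after their values were seen. The lowest ratios were those of *Rhbdf1* (-0.14), *Adam15* (-0.13) and *Rhbdf2* (-0.12), of which the rhomboid pseudoproteases *Rhbdf1* and *Rhbdf2* bring ADAM17 to the cell surface.

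Genes that restrain the receptors or promote their turnover numbered 12, and 6 were higher and 6 lower, 0 of them past 1.5-fold, with a median log2 ratio of -0.03. *Errfi1* encodes an inhibitor of the kinase domain of EGFR and ERBB2 and was the most abundant of them. It averaged 7995 counts in control and 6803 in knockout uteri, a log2 ratio of -0.29. The ubiquitin ligase genes *Cblc* (-0.40) and *Cblb* (-0.22) also had ratios below 0, and the highest ratios were those of the phosphatase gene *Ptpn1* (0.19), *Stub1* (0.16) and *Lrig3* (0.15).

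Feedback genes, whose transcripts respond to ERK and whose products restrain it, showed no common direction. Of the 12 on the list 11 were retained, 6 higher and 5 lower, with a median log2 ratio of 0.01, and *Spry3* had no count in either genotype. The lowest ratios were those of *Spry1* (-0.39), *Spred3* (-0.31) and *Spred1* (-0.18). *Dusp9* was the gene past 1.5-fold, at a log2 ratio of 0.82 with mean counts of only 9.33 and 18.0, followed by *Dusp5* (0.36) and *Dusp7* (0.12). *Dusp6*, a phosphatase for ERK with mean counts of 1314 and 1441, had a log2 ratio of 0.07 and is named after its values were seen.

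The adaptors and transducers between receptors and nucleus were likewise balanced, with 11 of 21 higher and 10 lower, 0 past 1.5-fold and a median log2 ratio of 0.00. *Stat5a*, a transcription factor activated by ERBB receptors and by cytokine receptors, had the highest ratio, 0.56, averaging 946 counts in control and 1456 in knockout uteri. *Grb2* and *Map2k2* followed, each at 0.16. *Grb7*, an adaptor that binds ERBB2 and ERBB3, had the lowest ratio (-0.37), before *Gab1* (-0.31) and *Plcg1* (-0.27). *Grb7* starts at chr11:98446834, beyond the end of *Erbb2* at 98437716, and the transcripts of both genes were lower in *Foxo1d/d*.

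Transcripts known to be induced by ERK numbered 12, of which 11 were retained, 8 higher and 3 lower, with 0 past 1.5-fold and a median log2 ratio of 0.16. *Fos* (0.45), *Egr2* (0.38) and *Phlda1* (0.23) had the highest ratios, and *Egr1* (-0.15), *Myc* (-0.14) and *Egr3* (-0.07) the lowest. ERK activity itself was not measured.

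**Figure D4:**
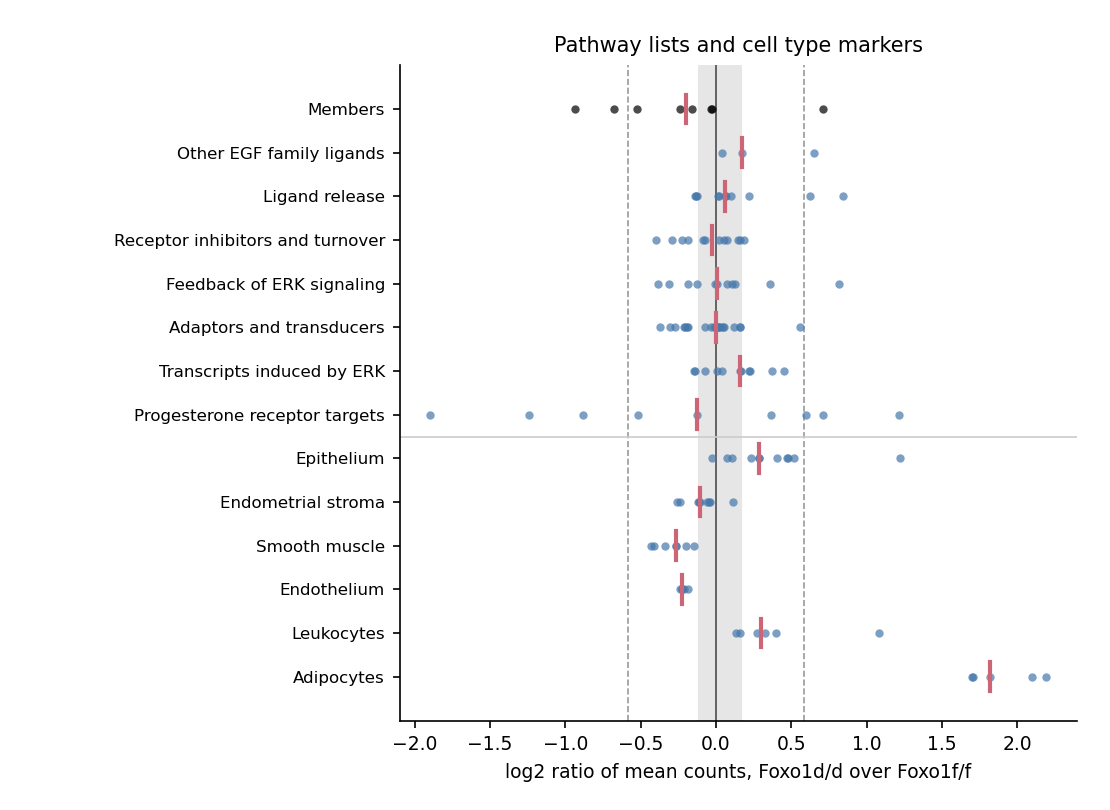
Each point is a gene averaging at least 10 counts, placed by its log2 ratio of mean counts in *Foxo1d/d* over *Foxo1f/f* (horizontal axis). Rows are the members, pathway lists and marker lists of epithelium, stroma, smooth muscle, endothelium, leukocytes and adipocytes, and a red bar marks the median of each row. The lists of luminal epithelium, gland (median -4.46), mesothelium and oviduct are not drawn. The grey band holds the middle 50% of all retained genes and dashed lines mark 1.5-fold, and the pathway lists drawn, without the estrogen response, have medians between -0.12 and 0.18 while that of the members is -0.20.

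*Areg* was also described beside other genes that progesterone receptor controls in the uterine epithelium. Of 8 such genes without *Areg*, 3 were higher and 5 lower, with a median log2 ratio of -0.32, and the 1.5-fold threshold was passed upward by 2 and downward by 3. With *Areg* the list held 9 genes and its median was -0.12. The endocytic receptor gene *Lrp2* (1.22) and *Ihh* (0.60), a hedgehog ligand made by the epithelium, had higher levels like *Areg*. The retinoic acid hydroxylase gene *Cyp26a1* (-1.895), *Calca* (-1.24) and *Irg1* (-0.88) had lower levels, so that the targets of progesterone receptor did not share a direction. *Pgr*, which holds Cre at an allele in the knockout, averaged 5469 and 6551 counts, with a log2 ratio of 0.20 (interval 0.17 to 0.23). The 9 genes of the estrogen response of the uterine epithelium, *Pgr* among them, had ratios above 0, 5 of them over 1.5-fold, with a median log2 ratio of 0.62. The highest were *Sprr2f* (4.37), a gene with near-identical relatives that may share its reads, *Clca3* (2.68) and *Ltf* (1.69), and the lowest *Pgr*, *C3* (0.17) and *Clca1* (0.02), whose interval of -0.02 to 0.06 included 0.

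Markers of cell types were set beside the lower *Erbb3* and the other receptors, because ERBB receptors differ between cell types. General epithelial markers were higher in 10 of 11 cases, with a median log2 ratio of 0.29 and a summed level of 877 CPM in control and 1066 in knockout uteri, *Cdh1* being the most abundant. *Erbb3* thus differed in the direction opposite to most of these markers. Of 4 retained luminal markers 2 were higher and 2 lower (median log2 ratio -0.25, or 0.655 without the filter on low counts), with a summed level of 66.2 and 90.9 CPM over the 5 listed genes, *Lpar3* being the most abundant. Gland markers were lower for 4 of 5 genes with a median log2 ratio of -4.46, and summed to 853 CPM in control and 43.2 in knockout uteri, with *Prss29* the most abundant, whose reads may be shared with its paralog *Prss28*. The gland transcription factor gene *Foxa2* had a log2 ratio of 0.04. *Erbb3* also marks Schwann cells, whose defining marker *Sox10* was lower as well (log2 ratio -0.72, interval -1.52 to -0.05), averaging 12.7 counts in control and 7.67 in knockout uteri. The part of these cell types in the lower *Erbb3* was not tested.

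Smooth muscle markers were lower for 7 of 7 genes (median log2 ratio -0.27), with a summed level of 7088 and 5727 CPM and *Myh11* as the most abundant. Endothelial markers were lower for 5 of 5 genes (median -0.22), at 1127 and 969 CPM with *Pecam1* the most abundant. Stromal markers were lower for 8 of 9 genes (median -0.11), at 11701 and 11341 CPM with *Col3a1* the most abundant. The log2 ratios of *Erbb2* (-0.241) and *Egfr* (-0.156) lay within the range of the smooth muscle list and within that of the stromal list. Both lay outside the range of the endothelial list, which was -0.237 to -0.187. The part of these cell types in the receptor levels was not tested. Markers with higher levels, as *Areg* had, were the general epithelial markers described above and those of leukocytes, for 6 of 6 genes (median 0.30), with a summed level of 290.4 and 353 CPM and *Ptprc* as the most abundant. Adipocyte markers were over 1.5-fold higher for 5 of 5 genes (median 1.82) at a low summed level of 10.2 and 36.7 CPM, *Fabp4* being the most abundant. Of 4 mesothelial markers 3 were higher (median 0.20, summed level 205 and 188, most abundant *Wt1*), and both oviduct markers were higher (median 0.53, or 0.17 without *Foxj1*, which averaged 12.7 and 25.3 counts, summed level 112 and 127, most abundant *Ovgp1*). None of the marker genes found in the table was without a count in both genotypes, and the part of these lists in the higher *Areg* and *Nrg2* was not tested.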

How the data were processed

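RNA was sequenced from 6 pools of uteri at PPD 4.5, 3 per genotype. According to their methods, the authors trimmed paired-end reads, aligned them with STAR (mm10), discarded duplicate reads (Picard), assigned reads to RefSeq genes with HTSeq and compared genotypes with edgeR. The submitters' notes name mm9 instead. Versions and counting strand are not given in the sources used here. The deposited table holds no coordinates, so positions and lengths were taken from GRCm38 annotations (RefSeq GRCm38.p6 and GENCODE release M21), the assembly that UCSC calls mm10.

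The values used were the deposited mean raw counts of each genotype, all whole numbers after multiplication by 3 (to within 1e-06). The authors' fold change, log2 CPM, p-value and FDR columns hold their own comparison and were not used. With means alone, the planned test across libraries was replaced by the log2 ratio of mean counts with a pseudocount of 1, scaled by totals, with a 95% Wilson interval on summed counts (78375043 and 81773890). The interval has no pseudocount. Medians and counts of lists used genes averaging 10 or more counts over both genotypes. Folds were calculated from the same ratio, pseudocount included, and no fold was given where summed counts were at most 3. The fold threshold was 1.5.

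The genes named are the members, *Foxo1*, *Pgr*, all other EGF-family ligands and, from each pathway or hormone list, the 3 highest and 3 lowest log2 ratios, beside partner genes on chromosome 5 and markers of the cell type lists. The members and lists were chosen with earlier results of these data known. Symbols of lists were matched to deposited symbols or to RefSeq synonyms with the same gene ID or a gene name. *Nrdp1*, *Acod1*, *Clca3a1*, *Spink1* and *Adgre1* are other names of genes already listed (*Rnf41*, *Irg1*, *Clca1*, *Spink3* and *Emr1*) and were counted once. *Cxcl15* was not matched, and the list of Schwann cell markers is not reported here as a whole. The names of *Clca1* and *Clca3* follow the table. Calculations used Python 3.11.15, pandas 2.3.3 and numpy 2.4.6 and were tested on simulated data. Other pseudocounts, scalings, filters, fold thresholds and gene lengths were tried.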

Additional observations from a re-analysis of the deposited data

How the results depend on the processing

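All 32 ratios of retained members under other pseudocounts (0.1 and 5) and scalings (median gene at 0, or totals without the 10 genes with the most counts) stayed within their counting intervals. The median of the members was between -0.22 and -0.16 in all 7 alternatives, including the one without a filter, which adds a ratio of *Ereg* from 2 and 3 summed counts. At a fold threshold of 2 the number of members past it was 0 higher and 0 lower, in place of 1 and 2, because *Areg*, *Btc* and *Erbb3* differ by less, and at a planned threshold below 1.5 it was 1 higher and 3 lower, with *Tgfa* added. The median of the luminal epithelium list, -0.25, was 0.655 with no filter and 0.655 with a mean count of at least 1, since *Krt13*, with few counts, then enters a list of 5. Of the other list medians 127 stayed within a counting interval. Among these, with the median gene at 0, the feedback list was at -0.016 in place of 0.01 and the adaptors at -0.025 in place of 0.00, and the other EGF-family ligands were at 0.281 in place of 0.18 with no filter or a mean count of at least 1. A further 4 moved by more but kept their sign, namely stroma (-0.13) and smooth muscle (-0.29) with the median gene at 0, and the estrogen response (0.45) and oviduct (0.17) with a mean count of at least 50. With other gene lengths, positions of members by level moved in 14 cases and stayed in 26. No paired analysis was possible because the table gives means of each genotype and no columns carry the replicate numbers. Leaving out each replicate and a replicate block were not run for the same reason. *Ereg*, *Erbb4*, *Epgn* and *Nrg3* had too few counts to compare, and the reason for the low or absent counts was not tested.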
